A study of Caenorhabditis elegans with 11 samples.

Results

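The genes described here encode the proteins of the cytosolic ribosome of Caenorhabditis elegans. They were taken by their WormBase identifiers, the rpl genes WBGene00004412 to WBGene00004456 for the large subunit and the rps genes WBGene00004469 to WBGene00004499 for the small subunit. This gave 76 genes, 45 of the large and 31 of the small subunit, out of 46904 gene rows in each of 2 count tables. All 76 had enough reads to be tested in both tables. Of the 76, 59 matched the RefSeq annotation of assembly WBcel235 by symbol. These lie on chromosomes I (17 genes), II (6), III (13), IV (16), V (6) and X (1), and their spans from first to last base, introns included, run from 307 to 1734 bp with a median of 741 bp.

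The RNA came from gonads of day-one adult worms, and the labels give the tissue as germline. The mutant was strain RB950, cup-4(ok837), and the wild type was N2. There were 3 cup-4 and 3 wild-type libraries of antisense small RNA, and 3 cup-4 and 2 wild-type libraries of mRNA, the wild-type ones from batches 2 and 3. The series design speaks of 3 biological replicates, and in the labels the replicate number is also the batch number. The gene cup-4 encodes a channel-like protein that coelomocytes, the scavenger cells of the body cavity, need for endocytosis.

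A ribosome has a small subunit, which reads the mRNA, and a large subunit, which joins the amino acids. Each cytosolic ribosomal protein is present in a fixed ratio to the others, and their genes are among the most highly transcribed of a growing cell, as in the proliferating and egg-forming worm gonad. Worms also make small RNAs antisense to mRNAs, many of them by RNA-dependent RNA polymerases that use the mRNA as template. Such small RNAs are loaded on Argonaute proteins, which silence some targets and license others.

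Gene counts per library summed to between 21290140 and 29559542 in mRNA and between 14858199 and 39310540 in antisense small RNA. The mutated gene itself had 23, 37 and 20 mRNA counts in cup-4 libraries 1, 2 and 3, against 117 and 85 in wild-type libraries 2 and 3. All 3 mutant libraries lay below both wild-type libraries, as the labels would have it. The 14 germline markers examined were all detected. Their summed mRNA levels were 13780, 12353 and 18211 CPM (counts scaled to a common library total) in cup-4 and 11048 and 19924 CPM in wild type. Markers of the intestine, which lies beside the gonad, stood apart. The 15 intestine genes, none of them at 0, summed to 144960, 24597 and 44960 CPM in cup-4, against 5097 and 4185 CPM in wild type, and 14 of the 14 tested were higher in cup-4. Markers of body muscle summed to 4371, 1088 and 2660 CPM in cup-4, against 984 and 583 CPM in wild type, with 9 of 9 higher. The intestine and muscle transcripts differed between genotypes in the direction opposite to the ribosomal protein mRNAs. Other somatic markers overlapped. Those of the somatic gonad summed to 157, 138 and 147 CPM in cup-4 and 144 and 149 CPM in wild type. Neuron markers summed to 69.2, 66.1 and 57.5 CPM in cup-4 and 82.3 and 66.4 CPM in wild type. Hypodermis markers also overlapped in sum, with 2 of 2 tested higher in cup-4. Values with the listed intestine genes left out of the library totals, and values without cup-4 replicate 1, stand beside the results. Neither removes all intestine RNA, since other intestine transcripts stay in and cup-4 libraries 2 and 3 also had higher intestine sums. The part of intestine and muscle RNA in the results was not tested. In bulk RNA, fewer cells of a type and less RNA per cell cannot be told apart.

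Ribosomal protein mRNA made up a smaller part of the cup-4 libraries. The 76 genes took 3.10%, 4.92% and 4.17% of gene counts in cup-4, against 8.61% and 6.22% in wild type. With the intestine genes left out of the totals the shares were 3.56%, 5.05% and 4.36% in cup-4, against 8.66% and 6.25% in wild type (exact two-sided permutation test, p = 0.1, the smallest p that 3 against 2 libraries allow). On the CPM scale, with TMM-scaled library totals, the genes summed to 34355, 46066 and 43283 CPM in cup-4, against 75636 and 65620 CPM in wild type. The groups did not overlap, and the mean log2 difference was -0.78 (exact permutation p = 0.1). The batches pointed the same way, with a log2 difference of -0.72 in batch 2 and -0.60 in batch 3. Set against the summed germline markers, the members were at 1.32, 1.90 and 1.25 on the log2 scale in cup-4 and 2.78 and 1.72 in wild type. On that scale the groups overlapped (mean difference -0.76, exact permutation p = 0.3).

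Both subunits were lower in cup-4. The rpl mRNAs summed to 23280, 32183 and 29151 CPM in cup-4, against 49906 and 43627 CPM in wild type, a mean log2 difference of -0.74. The rps mRNAs summed to 11075, 13883 and 14132 CPM in cup-4, against 25730 and 21994 CPM in wild type, a difference of -0.88. The ratio of summed rps to summed rpl counts, which library scaling cannot move, was 0.476, 0.431 and 0.485 in cup-4 and 0.516 and 0.504 in wild type. It was lower in each cup-4 library, but the exact permutation test of its log2 (difference -0.14) gave p = 0.2, and the sign turned when subunit medians replaced the sums (difference 0.051, exact permutation p = 0.4). A difference between the subunits was therefore not shown.

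**Figure D1:**
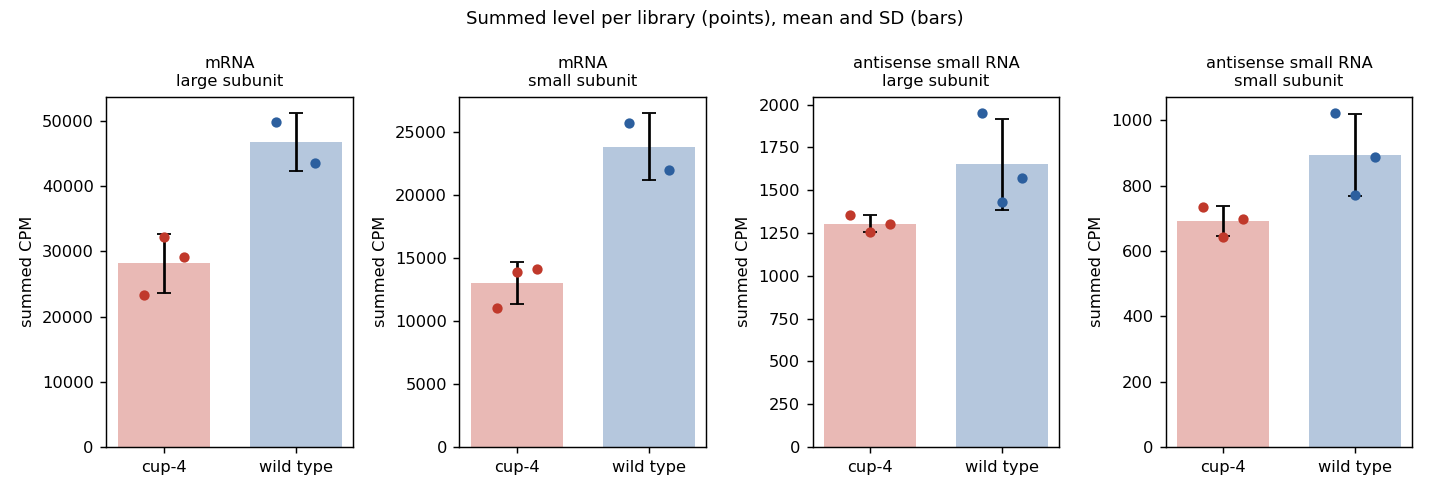
Summed CPM of the rpl (large subunit) and rps (small subunit) genes in mRNA and in antisense small RNA. Points are libraries, bars are means and error bars are SD (n = 3 cup-4 and 2 wild-type mRNA libraries, 3 and 3 small RNA libraries). In all 4 panels each cup-4 library lies below each wild-type library, with mRNA sums of the rps genes between 11075 and 14132 CPM in cup-4 and at 25730 and 21994 CPM in wild type.

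Gene by gene, nearly all members had the same direction. The fitted log2 fold change (cup-4 over wild type) was below 0 for 74 of 76 members, 43 of 45 rpl and 31 of 31 rps genes, against 40.6% of the 12861 genes tested. The members' median was -0.93, with -0.90 for rpl and -0.93 for rps genes, while the median of all genes was 0.16. The range was -1.62 to 0.59 among rpl and -1.48 to -0.67 among rps genes. In 73 of 76 members every cup-4 library lay below both wild-type libraries, a pattern met by 17.8% of all genes, and 27 members had a log2 fold change below -1, met by 3.67%. The 3 members whose groups overlapped were rpl-11.2, rpl-25.1 and rpl-42. Within batch 2, 75 of 76 members were lower in the cup-4 library (45.7% of all genes), and within batch 3, 73 of 76 (48.1% of all genes).

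None of these differences passed the test. In edgeR's quasi-likelihood test, adjusted over all genes, 0 members had an adjusted p under 0.05, as did 0% of all genes, and the smallest adjusted p was 0.122. At an unadjusted p under 0.05, 64 members were lower, 35 rpl and 29 rps genes, against 6.35% of all genes, and 0 were higher, against 10.8%. With batch as a replicate block, 1 member was called lower, rpl-29 (0.0544% of all genes). DESeq2 called 55 members lower (2.42% of all genes) and 0 higher (5.80% of all genes), and edgeR without a filter on low counts called 15 lower (0.280% of all genes). Without cup-4 replicate 1, the library with the most intestine RNA, the members' median was -0.92 and 59 members had a low unadjusted p (6.70% of all genes). With library totals that leave out the intestine genes, the median of all genes moved to 0.00093 and that of the members to -1.07, with 63 at a low unadjusted p (7.07% of all genes). Wild-type libraries moved the size more. Without wild-type replicate 2 the members' median was -0.78 and without wild-type replicate 3 it was -1.12.

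**Figure D2:**
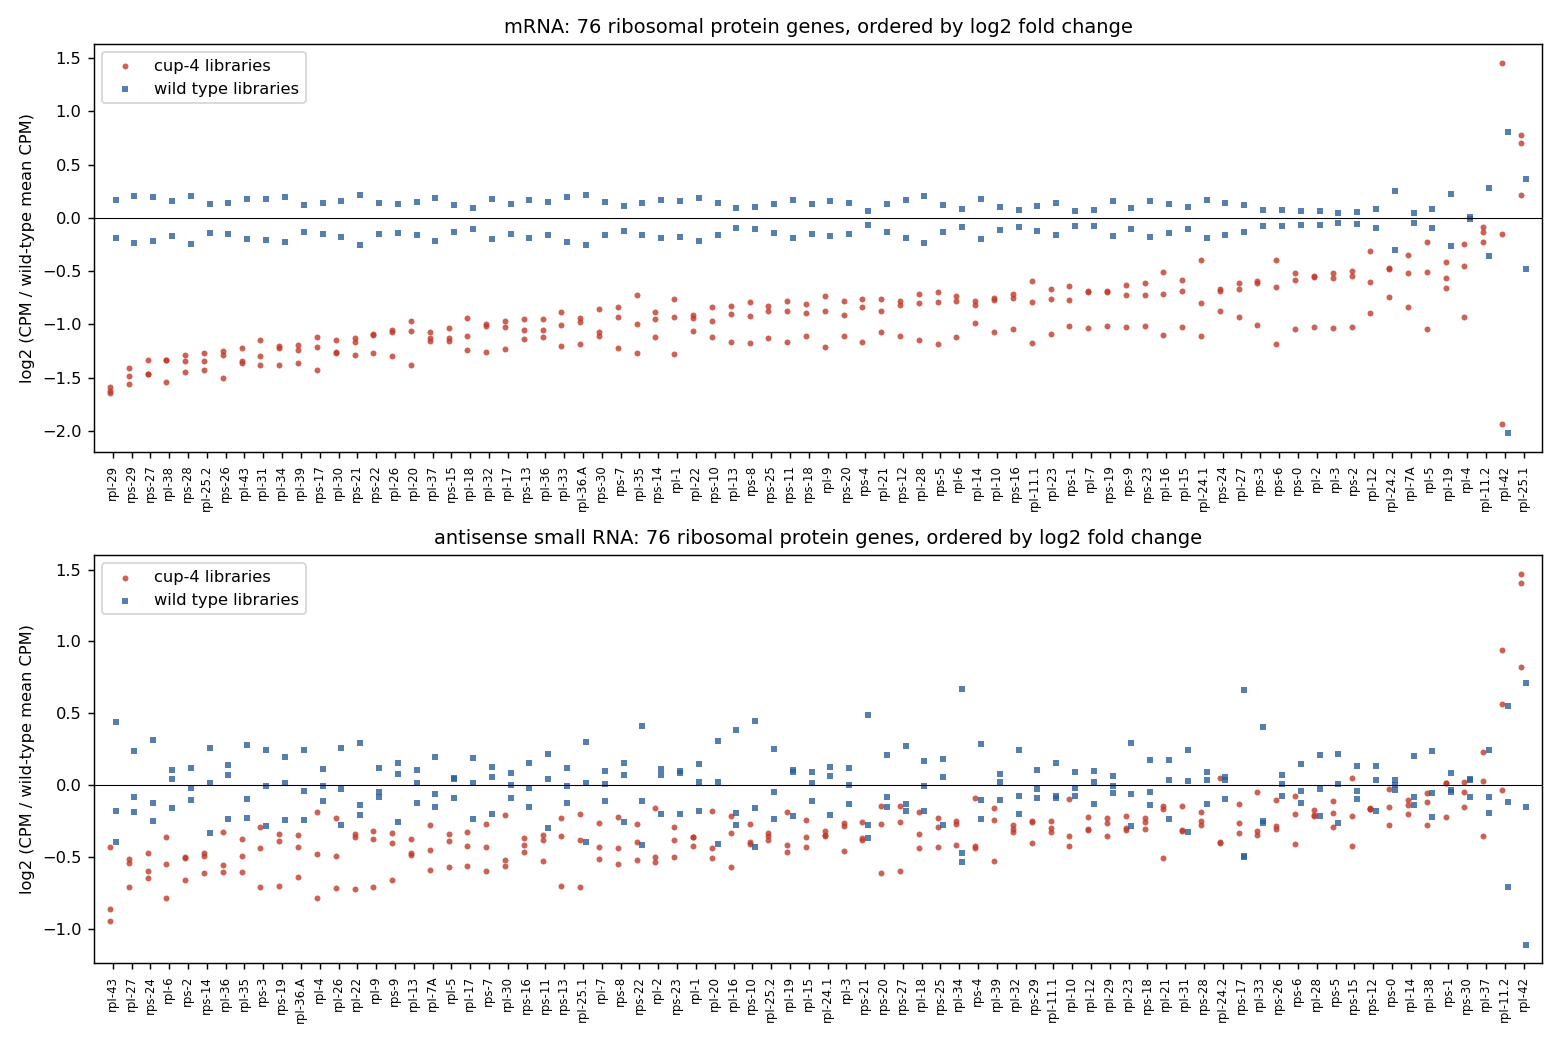
Level of each of the 76 genes in each library, as the log2 of its CPM over the wild-type mean CPM, in mRNA (top) and antisense small RNA (bottom), with genes ordered by fold change. Circles are cup-4 and squares wild-type libraries. In mRNA the groups separate for 73 of 76 genes and rpl-11.2, rpl-42 and rpl-25.1 stand at the right end, while in small RNA the circles and squares of many genes mix.

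The members of lowest p in mRNA encode small proteins. The rpl-29 gene (WBGene00004443, chromosome IV, 13882225 to 13882618 in WBcel235) had 34.8, 33.5 and 33.99 CPM in cup-4, against 117 and 92.1 CPM in wild type. Its log2 fold change was -1.62 (SE 0.19), with an adjusted p of 0.122 in edgeR, 0.0333 with the replicate block and 7.9e-08 in DESeq2. The cup-4 libraries lay close together and below both wild-type libraries. The rps-29 gene (WBGene00004498), whose product is a small zinc-binding protein of the small subunit, had 46.2, 48.9 and 51.5 CPM in cup-4, against 157 and 116 CPM in wild type (log2 fold change -1.48, SE 0.20). The rpl-38 gene (WBGene00004452), whose mouse ortholog is known for the translation of Hox mRNAs, had 72.7, 63.3 and 72.8 CPM in cup-4, against 205 and 163 CPM in wild type (-1.40, SE 0.21). Neither passed in edgeR (adjusted p of 0.122 each). The zinc-finger protein gene rps-27 (WBGene00004496) was likewise at 68.0, 68.4 and 74.7 CPM in cup-4, against 215 and 162 CPM in wild type (-1.42, SE 0.21).

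Other named genes of the large subunit also had lower mRNA levels in cup-4. The rpl-39 gene (WBGene00004453) encodes a very short protein of the exit tunnel, and had 20.9, 22.8 and 23.5 CPM in cup-4, against 58.5 and 49.0 CPM in wild type (log2 fold change -1.26, SE 0.19). It overlaps the coding gene grl-10 in the annotation, and reads of overlapping genes cannot be told apart if strand was not used in counting. The rpl-4 gene (WBGene00004415), whose product reaches into the tunnel wall, had 1153, 1848 and 1608 CPM in cup-4, against 2211 and 2177 CPM in wild type (-0.51, SE 0.31). The rpl-3 gene (WBGene00004414), whose product reaches towards the peptidyl transferase centre, had 1553, 2224 and 2150 CPM in cup-4, against 3075 and 3275 CPM in wild type (-0.68, SE 0.30). All 3 genes had separate groups and none passed, with edgeR adjusted p of 0.122 for rpl-39, 0.455 for rpl-4 and 0.314 for rpl-3.

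Levels between genes were compared per kb of span, among the 59 members with a span and in wild-type order. The highest mRNA level was that of rpl-12 (WBGene00004424, chromosome IV, 13239587 to 13240651), which encodes a protein at the base of the ribosomal stalk, with means of 6668 CPM per kb in cup-4 and 9974 in wild type. The next were rpl-7A (2860 and 4202 CPM per kb), rpl-19 (1264 and 1839), rps-4 (974 and 1832) and rpl-3 (1139 and 1831). Of these, rps-4 overlaps the coding gene Y43B11AR.3 in the annotation. On the CPM scale rpl-12 had 5708, 8589 and 7008 in cup-4, against 11276 and 9969 in wild type, a log2 fold change of -0.58 (SE 0.33). For rpl-7A the values were 3396, 4780 and 4250 CPM in cup-4, against 6278 and 5891 CPM in wild type (-0.55, SE 0.31). These genes, too, had no overlap between genotypes. Without rpl-12 and rpl-7A the other members still summed to 25252, 32698 and 32025 CPM in cup-4, against 58082 and 49761 CPM in wild type. The lowest mRNA levels per kb among these 59, again in wild-type order, belonged to rpl-42 (0.491 in cup-4 and 0.377 in wild type), rpl-11.2 (96.6 and 107), rpl-39 (66.3 and 159), rps-21 (81.0 and 185) and rps-29 (66.8 and 187). Among 12087 coding genes with a span, the median member was at percentile 98.8 of mRNA per kb in cup-4 and 99.3 in wild type. Above percentile 99 were 23 of 59 members in cup-4 and 41 of 59 in wild type. These percentiles depend on gene length too, since spans include introns.

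The rpl-42 gene (WBGene00004455) did not resemble the rest. It had 26, 14 and 3 mRNA counts in cup-4 and 22 and 3 in wild type. That is too little for a direction, and its sign differed between fits.

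The fold change in mRNA went with the length of the gene. Across the 59 members with a span, the Spearman rho between log2 fold change and span was 0.62, as a description over genes measured in the same 5 libraries. It was 0.48 between log2 fold change and mean CPM over all 76. In 3 groups of rising span, the 20 members of 307 to 640 bp had a median log2 fold change of -1.01, the 19 of 671 to 901 bp one of -0.93, and the 20 of 903 to 1734 bp one of -0.74. The order of the 3 medians was the same with the replicate block, in DESeq2, with library totals without the intestine genes and without any 1 of the libraries. Other coding genes of the same span groups had medians of -0.35 (571 genes), -0.36 (630) and -0.083 (2712). Among them, genes that averaged 100 CPM or more were at -0.66 (19 genes), -0.58 (44) and -0.26 (339). The members lay below these medians in each span group, and the other genes shared the smaller difference at the long end. Within each library, the median log2 CPM of the short members minus that of the long members was -2.15, -2.24 and -2.29 in cup-4. In wild type it was -1.95 and -2.13, so the groups separated only narrowly. Among the other genes of 100 CPM or more it was 0.38, -0.34 and -0.18 in cup-4 and 0.30 and 0.097 in wild type, with overlap.

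**Figure D3:**
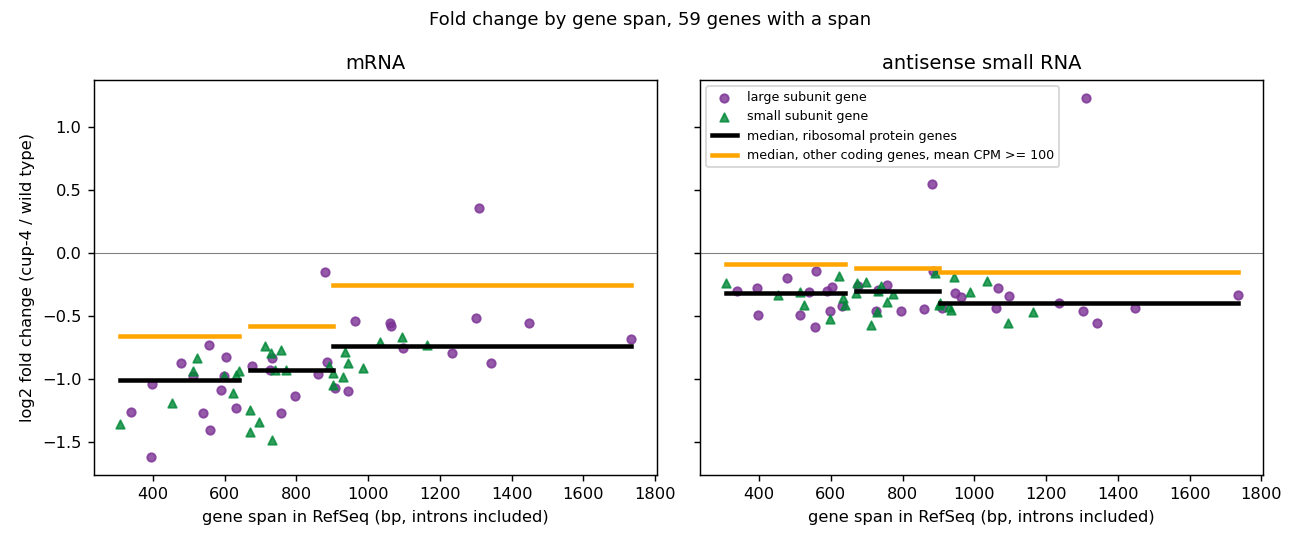
Log2 fold change (cup-4 over wild type) of 59 ribosomal protein genes against gene span in bp, in mRNA (left) and antisense small RNA (right). Circles are large and triangles small subunit genes, black lines mark the medians of the members in 3 span groups and orange lines those of other coding genes that averaged 100 CPM or more. In mRNA the black lines are at -1.01, -0.93 and -0.74 from short to long and the orange lines lie above them, while in small RNA the black lines are at -0.32, -0.30 and -0.40.

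Members whose symbols share a number before a point and differ in the number after it were compared within each library, as the log2 ratio of their counts, which is free of library scaling. Shares of a pair are shares of reads, not per length, since most of these genes have no span here. The 3 such pairs in 2 assays gave 6 tests. The rpl-11 genes encode a protein that binds 5S ribosomal RNA. The rpl-11.1 gene (WBGene00004422) lies on chromosome V (3585333 to 3586064) and rpl-11.2 (WBGene00004423) on X (2241738 to 2242618), a chromosome that is largely silent in the worm germline. The rpl-11.1 mRNA had 365, 546 and 475 CPM in cup-4, against 888 and 754 CPM in wild type. The rpl-11.2 mRNA had 88.9, 85.8 and 80.5 CPM in cup-4, against 115 and 73.7 CPM in wild type. The groups separate for rpl-11.1 and overlap for rpl-11.2, whose log2 fold change was -0.15, and 0.20 without wild-type replicate 2. The rpl-11.2 gene made up 19.6%, 13.6% and 14.5% of the pair in cup-4, against 11.5% and 8.90% in wild type. The mean log2 ratio of rpl-11.1 to rpl-11.2 differed by -0.73 (exact permutation p = 0.1, 0.3 adjusted over the 6 tests).

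The rpl-25 genes encode a protein at the mouth of the exit tunnel. Here the pair split by direction. The mRNA of rpl-25.1 (WBGene00004438) was at 36.5, 38.4 and 25.97 CPM in cup-4, against 28.8 and 16.01 CPM in wild type, and that of rpl-25.2 (WBGene00004439) at 260, 277 and 291 CPM in cup-4, against 767 and 636 CPM in wild type. In each batch with both genotypes rpl-25.1 was the higher in cup-4, although its groups overlap (log2 fold change 0.59, SE 0.33, edgeR adjusted p 0.417). For rpl-25.2 the log2 fold change was -1.35 (SE 0.23, edgeR adjusted p 0.122). The log2 ratio of rpl-25.1 to rpl-25.2 was -2.83, -2.85 and -3.48 in cup-4, against -4.73 and -5.31 in wild type. The groups did not overlap and the mean difference was 1.97 (exact permutation p = 0.1, adjusted 0.3), with 1.68 to 2.25 when any 1 library was left out.

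The third pair is unequal in kind, since rpl-24.1 (WBGene00004436) encodes the ribosomal protein and rpl-24.2 (WBGene00004437) is related to a factor that assembles the large subunit in yeast and human cells. The rpl-24.1 mRNA had 254, 415 and 314 CPM in cup-4, against 616 and 479 CPM in wild type, and the rpl-24.2 mRNA 14.96, 18.1 and 17.98 CPM in cup-4, against 29.9 and 20.3 CPM in wild type. Both were lower in cup-4 without overlap. Their log2 ratio differed by -0.22 with overlapping groups (exact permutation p = 0.3, adjusted 0.45).

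**Figure D4:**
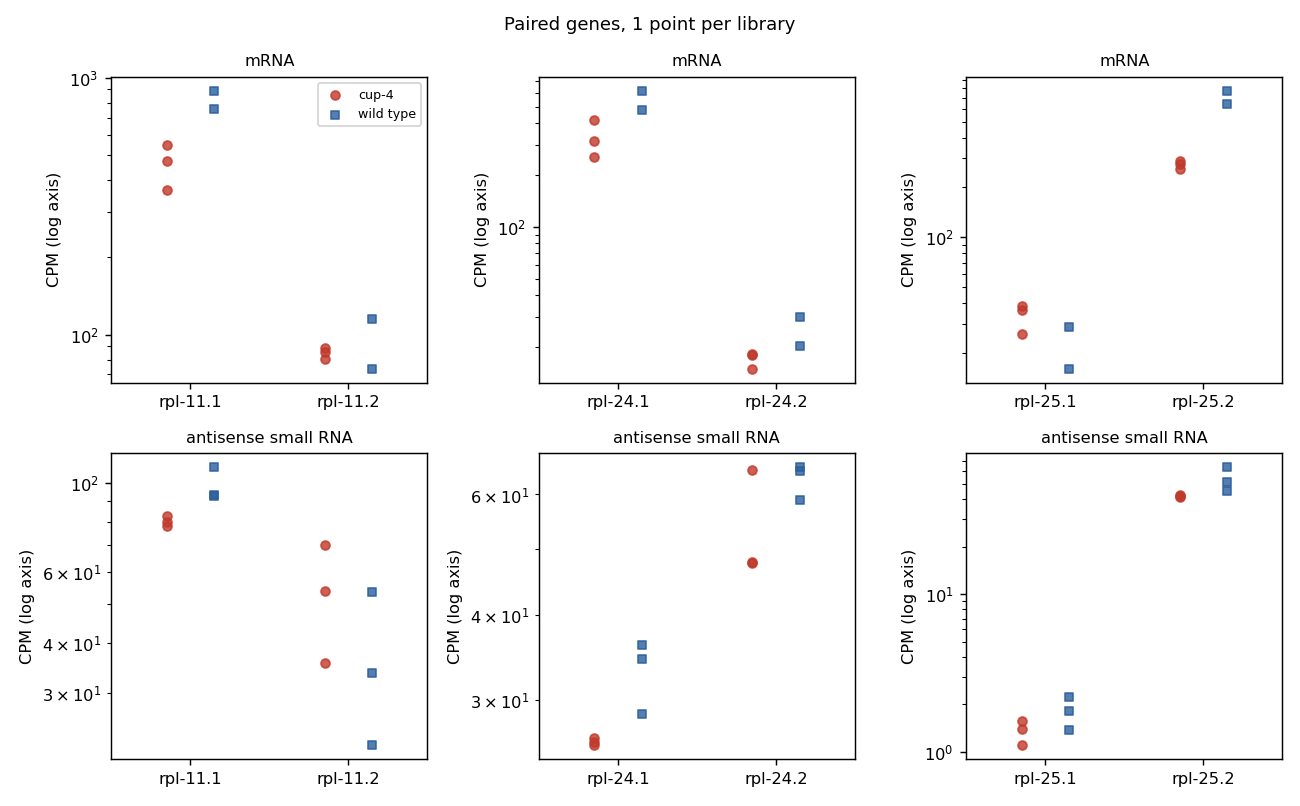
CPM on a log axis of the rpl-11, rpl-24 and rpl-25 pairs, in mRNA (top) and antisense small RNA (bottom). Each circle is a cup-4 and each square a wild-type library. In mRNA rpl-25.2 separates downward in cup-4 (260 to 291 against 636 and 767 CPM) and rpl-25.1 does not, and the CPM of rpl-24.2, not divided by length, is below that of rpl-24.1 in mRNA and above it in small RNA.

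Other genes of the translation machinery were examined as lists. Of all genes tested in mRNA, 40.6% had a log2 fold change below 0, 6.35% were lower at an unadjusted p under 0.05 and 10.8% higher. The stalk proteins and the ubiquitin fusions, which are ribosomal proteins by function but lie outside the identifier blocks, had the members' direction. All 5 (rla-0, rla-1, rla-2, ubl-1, ubq-2) were lower in mRNA, with a median log2 fold change of -0.80, 4 of them at an unadjusted p under 0.05. Of the 70 mitochondrial ribosomal protein genes, 69 were lower, with a median of -0.49 and 28 at a low unadjusted p, the exception being mrpl-45 (log2 fold change 0.66). Of 31 initiation factor genes 29 were lower (median -0.36, 5 at a low p). Of 6 elongation factor genes 4 were lower (median -0.14, 0 at a low p), and eef-1G, a subunit of the exchange factor of elongation factor 1, had overlapping levels in the 2 genotypes (log2 fold change -0.0092, SE 0.35). Of 15 genes of ribosome biogenesis and RNA polymerase I, 5 were lower and 10 higher (median 0.11), with rpoa-1, for the largest polymerase I subunit, higher at an unadjusted p under 0.05. In edgeR 0 genes of any of these lists were called in mRNA.

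Antisense small RNA over the 76 genes was also lower in cup-4, by a smaller amount. The members took 0.210%, 0.196% and 0.216% of gene counts in cup-4, against 0.293%, 0.224% and 0.219% in wild type. They summed to 2090, 1896 and 2003 CPM in cup-4, against 2971, 2203 and 2461 CPM in wild type. The sums did not overlap, with a mean log2 difference of -0.34 (exact two-sided permutation test, p = 0.1, the smallest possible), and they were lower in each batch, by -0.51, -0.22 and -0.30 in batches 1, 2 and 3. Set against the summed antisense counts of the germline markers, the members were at -0.20, -0.26 and -0.31 on the log2 scale in cup-4 and -0.00016, -0.38 and -0.075 in wild type. On that scale the groups overlapped (mean difference -0.11, exact permutation p = 0.4). The rpl genes differed by -0.33 and the rps genes by -0.36. The ratio of rps to rpl counts was 0.543, 0.512 and 0.534 in cup-4 and 0.524, 0.537 and 0.564 in wild type. The 2 groups overlapped (log2 difference -0.032, exact permutation p = 0.5), and with subunit medians the difference was 0.0093.

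Per gene, 74 of 76 members had an antisense log2 fold change below 0, against 49.3% of the 13336 genes tested. The exceptions were rpl-11.2 and rpl-42. The median was -0.34 for the members, -0.35 for rpl and -0.33 for rps genes, against 0.0065 for all genes. Groups did not overlap in 42 lower members (14.8% of all genes) and 1 higher member (15.8%). Within batches 1, 2 and 3, 75, 66 and 70 of the 76 members were lower in cup-4, against 50.1%, 48.5% and 47.8% of all genes. In edgeR 40 members had an unadjusted p under 0.05, against 22.8% of all genes. Of these, 39 were lower in cup-4, 27 rpl and 12 rps genes, and 1 was higher.

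After adjustment edgeR called 1 member, rps-2 (0.337% of all genes were called lower). With the replicate block rpl-6 and rpl-43 joined it, giving 3 (0.555% of all genes). DESeq2 called 12 lower (4.74% of all genes) and 1 higher (4.46%), and edgeR without a filter 20 lower (2.35%) and 1 higher (2.85%). With an adjusted p under 0.1 the members were rpl-5, rpl-6, rpl-13, rpl-27 and rps-2 (2.24% of all genes). Apart from rps-2 these genes were singled out after their values were seen. Scaling by total counts called 0 members (0.255% of all genes), with 71 of 76 still lower. It moved the median of all genes to 0.11 and that of the members to -0.23.

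The called gene, rps-2 (WBGene00004471, chromosome IV, 7925298 to 7926391), encodes a protein at the channel through which mRNA enters the small subunit. Its antisense small RNA was at 58.3, 52.3 and 58.4 CPM in cup-4, against 81.4, 77.0 and 89.8 CPM in wild type. It fell by 0.55 on the log2 scale (SE 0.088, adjusted p 0.0395 in edgeR, 0.0338 with the replicate block, 1.0e-04 in DESeq2). The call was lost without cup-4 replicate 1, 2 or 3 or wild-type replicate 3, where edgeR's adjusted p was 0.102, 0.203, 0.124 or 0.127, and with total counts (0.0805). It held without wild-type replicate 1 or 2 (adjusted p 0.0300 or 0.0361). In mRNA rps-2 had 745, 1074 and 1040 CPM in cup-4, against 1574 and 1455 CPM in wild type (log2 fold change -0.67, SE 0.29, edgeR adjusted p 0.306).

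Against the general direction, rpl-42 antisense small RNA was at 9.44, 9.04 and 6.02 CPM in cup-4, against 1.58, 5.58 and 3.06 CPM in wild type. The groups did not overlap. The log2 fold change was 1.23 (SE 0.44), with an adjusted p of 0.168 in edgeR and 0.0487 in DESeq2. The rpl-11.2 antisense small RNA was at 35.6, 69.9 and 53.99 CPM in cup-4 and 53.5, 33.7 and 22.3 CPM in wild type, with overlap (log2 fold change 0.54, SE 0.36, edgeR adjusted p 0.408). That of rpl-11.1 was at 80.1, 78.3 and 82.8 CPM in cup-4, against 109, 92.6 and 93.2 CPM in wild type. The log2 ratio of the pair overlapped between genotypes (difference -0.87, exact permutation p = 0.2, adjusted 0.4). The antisense ratios of the rpl-25 and rpl-24 pairs differed by -0.049 and -0.083 (exact permutation p = 0.7 each), and the sign of both turned when single libraries were left out.

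Levels of antisense small RNA did not follow mRNA levels closely. Per kb of span, among the 59 members with a span and in wild-type order, the highest was rpl-34 (WBGene00004448), which overlaps the coding gene C42C1.3, with means of 206 CPM per kb in cup-4 and 256 in wild type. Its CPM were 114, 116 and 103 in cup-4, and 220, 95.1 and 99.6 in wild type. Wild-type library 1 stood apart, and without it the log2 fold change of rpl-34 was 0.19 in place of -0.31. The next were rpl-11.1 (110 and 134 CPM per kb in cup-4 and wild type), rps-14 (65.8 and 94.6), rps-11 (63.7 and 85.1) and rps-4 (64.9 and 80.4). Of these, rps-4 overlaps the coding gene Y43B11AR.3. The lowest of the 59 in wild type were rpl-42 (6.24 and 2.60), rps-13 (8.12 and 10.8), rps-27 (9.29 and 11.6), rpl-39 (9.76 and 12.0) and rpl-14 (11.5 and 12.8). The rpl-14 gene overlaps the coding gene nssp-7. Among 11111 coding genes the median member was at percentile 78.7 of antisense small RNA per kb in cup-4 and 82.5 in wild type. Spans include introns, so these percentiles also depend on gene length. Across the 59 members, the Spearman rho of antisense small RNA with mRNA, both per kb of span, was 0.17 in cup-4 and 0.22 in wild type, as a description over genes that share their span. Without division by length it was 0.39 and 0.43 over 76 members.

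**Figure D5:**
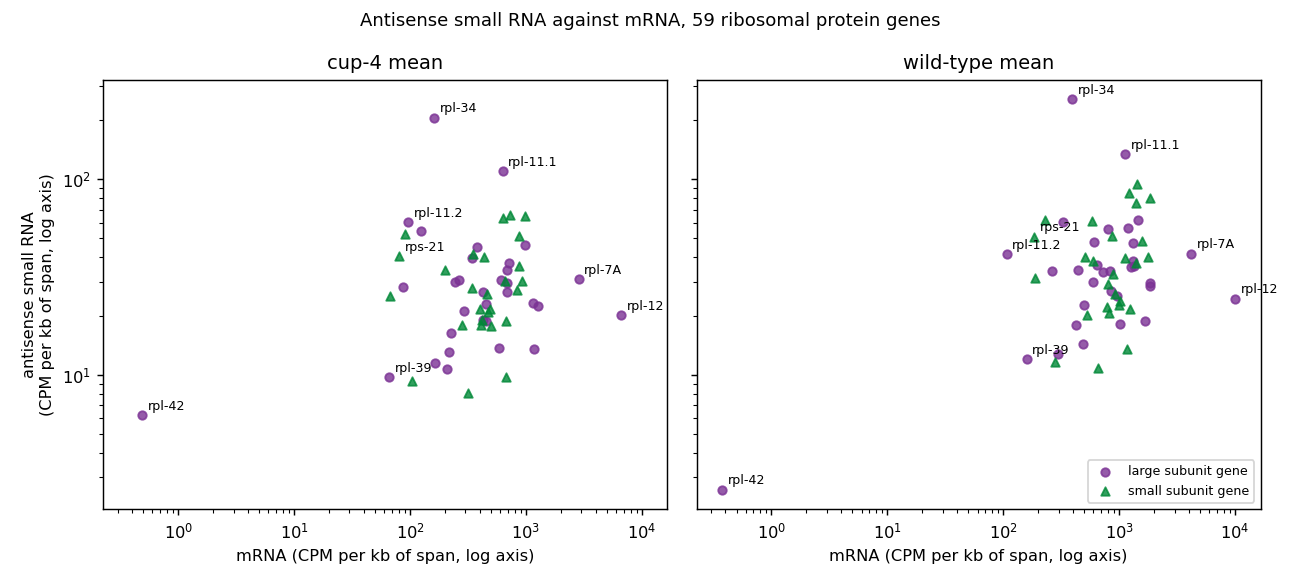
Antisense small RNA against mRNA, both in CPM per kb of gene span on log axes, for the 59 members with a span, as cup-4 means (left) and wild-type means (right). Circles are large and triangles small subunit genes. The cloud shows little slope (rho 0.17 in cup-4 and 0.22 in wild type), with rpl-12 far to the right at 6668 and 9974 CPM per kb of mRNA, rpl-34 at the top and rpl-42 at the lower left.

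Relative to their mRNA, most members carried less antisense small RNA than the median gene. The median member had 59.02 CPM of antisense small RNA per 1000 CPM of mRNA in cup-4 and 42.8 in wild type, while the median of the 10163 genes tested in both assays was 975 in cup-4 and 1013 in wild type. Of the 76 members, 58 in cup-4 and 64 in wild type were below percentile 10 of these genes. The ratio divides by mRNA, in which the members rank high, and genes of equal mRNA level were not compared. Outside the members, the elongation factor genes eef-1A.1, eef-1G and eef-2 in wild type had 53.7, 53.9 and 149 CPM of antisense small RNA. Their mRNA was at 13216, 15889.5 and 22811 CPM. In wild type eef-1B.1, eef-1B.2 and eef-1A.2 had 82.8, 203 and 4.43 CPM of antisense small RNA. The mRNA of these was at 4322, 355 and 56.6 CPM. The lowest ratio among the members was that of rpl-12 (3.03 in cup-4 and 2.46 in wild type), followed in wild-type order by rpl-7A (10.8 and 9.92), rps-1 (16.8 and 10.08) and rpl-4 (11.5 and 11.15). Apart from rpl-42, with too few mRNA counts for a ratio, the highest in wild type were rpl-24.2 (3147 in cup-4 and 2519 in wild type), rpl-34 (1272 and 655) and rpl-43 (820 and 548). The rps-1 and rpl-43 genes were singled out after their values were seen. The ratio of rpl-11.2 was 625 in cup-4 and 387 in wild type. In the rpl-24 pair the assembly factor relative held 5.56%, 4.18% and 5.42% of the mRNA in cup-4 and 4.62% and 4.07% in wild type. It held 64.7%, 64.9% and 71.1% of the antisense small RNA in cup-4 and 62.0%, 69.3% and 65.6% in wild type. Summed over the members, the ratio was 60.8, 41.2 and 46.3 per 1000 in cup-4 batches 1, 2 and 3, against 29.1 and 37.5 in wild-type batches 2 and 3. The groups did not overlap (mean log2 difference 0.56, exact permutation p = 0.2).

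The fold changes of the 2 assays showed little relation across members (Spearman rho -0.099, n = 76, a description). Gene length did not order the antisense fold changes either (rho -0.11, n = 59), with medians of -0.32, -0.30 and -0.40 in the short, middle and long span groups. In antisense small RNA most genes of the other translation lists had a log2 fold change below 0, as did 49.3% of all genes. The median log2 fold change was -0.42 for the 5 stalk and ubiquitin fusion genes (5 lower), -0.15 for 6 elongation factor genes (6 lower), -0.23 for 70 mitochondrial ribosomal protein genes (69 lower) and -0.10 for 31 initiation factor genes (22 lower and 9 higher). The 15 biogenesis genes had a median of -0.25 and 15 were lower, where in mRNA 5 were lower. Among these lists edgeR called fib-1 and mrps-14 lower, where 0.337% of all genes were called lower. The fib-1 gene, for the nucleolar methyltransferase fibrillarin, had 180, 169 and 185 CPM in cup-4, against 305, 255 and 251 CPM in wild type. The edgeR adjusted p was 0.0429 for fib-1 and 0.0320 for mrps-14. Intestine markers were low in this assay, at 89.7, 64.4 and 52.9 CPM in cup-4 and 47.3, 39.6 and 30.0 CPM in wild type, with 8 of 9 tested higher. Sperm markers summed to 31.1, 25.6 and 18.2 CPM in cup-4, against 4.51, 17.7 and 6.43 CPM in wild type, and 7 of 7 tested had a log2 fold change above 0 (median 1.36). Neuron markers summed to 105, 127 and 92.1 CPM in cup-4, against 181, 180 and 168 CPM in wild type, although 4 of 5 had a log2 fold change above 0. The part of these markers in the small RNA results was not tested.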

How the data were processed

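Gene counts were taken as deposited, unnormalized and not pooled, with antisense orientation for small RNA per the labels. The submitters' processing notes name FastQC, cutadapt, HISAT2, HTSeq, DESeq2 and build ce11, without versions or roles. The design text speaks of total RNA sequencing and the protocol of an mRNA library kit. Whether strand was used in counting mRNA, and what the letters TAP in column names mean, is not given in the sources used here. Summary rows that name no gene held 13.4% to 23.8% of mRNA reads and 44.0% to 49.1% of small RNA reads, and were left out. Among them, reads with more than 1 alignment made up 5.54% to 13.0% of all mRNA reads and 0% of all small RNA reads.

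Each assay was fitted alone in R 4.3.3 with edgeR 4.0.16 (quasi-likelihood test, robust, TMM scaling, filterByExpr, genotype alone, Benjamini-Hochberg adjustment over all genes, threshold 0.05). The SE is the absolute log2 fold change over the square root of F. CPM use TMM-scaled totals. Single values were compared with exact two-sided permutation tests over libraries, and paralogue ratios used a pseudocount of 0.5. Alternatives were the replicate block, DESeq2 1.42.0, scaling by RLE, by total counts, by TMM computed after dropping the top 50 genes or by totals that lack the intestine list, counts unfiltered or filtered at a mean of 50, other thresholds, batches 2 and 3 alone, and each replicate left out in turn. The fit was tested on simulated data.

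The named members are 25 genes taken by a rule: the rpl-11, rpl-24 and rpl-25 pairs, the 5 highest and lowest per kb in each assay, those called or of lowest p, the 3 extreme ratios of antisense small RNA to mRNA (with at least 10 mRNA counts), and those on X. Ranks per kb, ratio ranks for this rule and chromosomes cover the 59 members with a span. The members, lists and rule were chosen with earlier results of these data known. Levels between genes are per kb of RefSeq gene span (WBcel235, which is ce11), introns included. Exon or coding length had been planned, but no such annotation was used here. No sequences are printed for the same reason.

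The labels' batch number supplies the pairing. Deviations from genotype means of same-batch libraries correlated at -0.12 and 0.54 in mRNA batches 2 and 3, and at 0.12, 0.10 and 0.17 in small RNA batches 1, 2 and 3. Every pair of libraries differed by more than sampling noise, the lowest chi-square over its degrees of freedom being 20.3. The p-values rest on differences among these few libraries, and those of edgeR also on dispersions estimated with information from all genes. Reads are not independent molecules.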

Additional observations from a re-analysis of the deposited data

How the results depend on the processing

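The number of members called depended on the test, the threshold and the filter. In mRNA edgeR called 0 (0% of all genes), and 64 were lower at an unadjusted p under 0.05 (6.35% of all genes). Called lower were 1 with the replicate block (0.0544% of all genes), 55 in DESeq2 (2.42%) and 15 without a filter (0.280%). In antisense small RNA 1 member was called (1.12% of all genes), against 40 at an unadjusted p under 0.05 (22.8% of all genes). At an adjusted p under 0.1, 5 were lower (2.24% of all genes). In either direction 3 were called with the replicate block (1.97% of all genes) and 13 in DESeq2 (9.2%). Total counts gave 0 (1.63% of all genes) and no filter 21 (5.2%). In batches 2 and 3 alone 2 were called (2.89% of all genes). When a library was left out, 0 to 2 were called (0.0791% to 2.95% of all genes). The block changed no other call among the named members. Leaving out single libraries moved the mRNA median of the rpl genes from -1.11 to -0.76 and that of the rps genes from -1.13 to -0.79, both largest in size without wild-type replicate 3.

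Signs turned for values near 0. The log2 ratio of rps to rpl differed by 0.051 in mRNA and 0.0093 in small RNA with subunit medians. The antisense differences of the rpl-24 and rpl-25 pairs ranged from -0.20 to 0.057 and from -0.21 to 0.097 when a library was left out. When a library was left out, the log2 fold change of rpl-11.2 mRNA ranged from -0.50 to 0.20, that of rpl-42 mRNA from -0.86 to 2.34 and that of rpl-34 antisense small RNA from -0.52 to 0.19. That of rpl-42 mRNA was also -0.55 under the replicate block. In batches 2 and 3 alone it was -0.86, and that of rpl-34 was 0.17. The rho of antisense small RNA with mRNA in wild type kept its sign. It was 0.43 over all 76 members without division by length, against 0.22 per kb over the 59 with a span. The cause of these shifts was not tested. Of the values that answer a comparison, 158 kept their direction and size, 19 moved and 6 reversed. Of those of named members 679 kept direction and call, 32 passed the threshold in addition, 5 no longer passed and 7 reversed. With 2 wild-type mRNA libraries and 3 in other groups, exact tests cannot go below 0.1.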
